A study of Mus musculus with 22 samples.

Results

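The 8 genes Aqp4, Kcnj10, Dag1, Atp1b2, Slc1a2, Slc1a3, Glul and Glud1 were followed across the optic nerve astrocyte libraries because their products handle water, potassium and glutamate. They were chosen by gene symbol for these roles, with earlier results of these data known, and make up 8 of the 29367 genes counted. Each of the 8 passed the filter on low counts in every comparison, and the lowest count of any of them in any library was 1376.

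The study raised intraocular pressure in 1 eye of each mouse by injecting microbeads and took the optic nerve head (ONH), which is unmyelinated, and the adjoining part of the optic nerve proper (ONP). The mice, 3 to 4 months old on a C57Bl/6 background and labelled wild type, were homozygous for the ribotag allele Rpl22 HA/HA, so that the ribosomes of cells with Cre carried an HA tag. A mouse GFAP promoter drove Cre constitutively (GFAP-Cre 73.12), and the RNA bound to tagged ribosomes was pulled down with an antibody to HA. The 4 groups were ONH at 7 days (n = 4), ONH at 30 days (n = 7), ONP at 7 days (n = 4) and ONP at 30 days (n = 7), each library being a pool of tissue from 4 mice, 2 male and 2 female. All 22 libraries came from microbead-injected eyes, so every comparison was between days or between regions of the injured nerve, and no uninjured nerve was analysed here. The column numbers of the 7 day libraries did not match the labels, so these are called library 1, 3, 5 and 6 (ONH) and 1, 2, 5 and 6 (ONP). The 30 day libraries are called replicates 1 to 7. Pairs below join ONH and ONP replicates of the same number, taken as the same mice, which the labels do not state. How often other genes agree in 7 of 7 pairs was not counted.

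The libraries held between 16292489 and 33307092 counts. All 10 astrocyte markers were present, with a summed level of 13146 to 32660 CPM (counts scaled to library size, TMM-normalized). RNA of other cells was also present. The summed level of 10 oligodendrocyte markers was 13870 to 41190 CPM in the ONH, 82576 to 110811 CPM in the ONP at 7 days and 26364 to 86196 CPM in the ONP at 30 days. The 10 photoreceptor markers exceeded 1000 CPM in 3 ONH libraries, which were library 5 (1492 CPM) and library 6 (5971 CPM) at 7 days and replicate 4 (2339 CPM) at 30 days. Fits without these 3 libraries kept only libraries 1 and 3 of the ONH at 7 days. The 10 microglia and macrophage markers ranged from 149 to 3169 CPM. In pooled tissue, a lower level of a transcript cannot tell fewer cells of a type from less RNA per cell.

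Astrocytes keep the fluid around axons stable. Water passes through the channel AQP4, which is held at the endfeet by dystroglycan. Potassium released by active axons is taken up through the inward rectifier Kir4.1 and by the sodium pump, and glutamate is taken up by the transporters GLT-1 and GLAST. Inside the cell, glutamine synthetase turns glutamate into glutamine and glutamate dehydrogenase turns it into a fuel of the citric acid cycle.

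The upstream sequences of 3 genes are shown because Kcnj10 and Glul were both lower in the ONP at 30 days than at 7 days, while Slc1a3 and Glul varied in opposite directions between libraries. Each sequence gives the 250 bases before the start of the RefSeq transcript (GRCm38.p6), 5′ to 3′ on the strand of the gene. Capitals mark the letters TTGGC or GCCAA (a motif of NFI factors) and ACAAT or ATTGT (a core of SOX factors), searched on both strands. The positions were chr1:172340960-172341209 on the plus strand for Kcnj10, chr1:153899679-153899928 on the plus strand for Glul and chr15:8710808-8711057 on the minus strand for Slc1a3.
Kcnj10: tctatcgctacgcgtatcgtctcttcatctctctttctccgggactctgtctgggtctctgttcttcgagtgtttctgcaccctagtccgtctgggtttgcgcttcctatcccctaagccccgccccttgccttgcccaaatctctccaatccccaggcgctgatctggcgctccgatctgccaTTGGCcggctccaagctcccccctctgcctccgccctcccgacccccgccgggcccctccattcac
Glul: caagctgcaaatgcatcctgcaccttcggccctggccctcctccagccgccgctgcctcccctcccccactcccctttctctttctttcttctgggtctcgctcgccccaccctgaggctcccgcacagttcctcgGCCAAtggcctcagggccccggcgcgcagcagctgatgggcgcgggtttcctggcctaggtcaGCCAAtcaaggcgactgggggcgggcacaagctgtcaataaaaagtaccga
Slc1a3: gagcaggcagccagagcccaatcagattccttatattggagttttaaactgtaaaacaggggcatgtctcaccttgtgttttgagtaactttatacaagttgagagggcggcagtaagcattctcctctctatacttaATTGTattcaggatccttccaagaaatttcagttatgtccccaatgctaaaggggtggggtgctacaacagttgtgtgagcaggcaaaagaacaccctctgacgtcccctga
The Kcnj10 window held 1 NFI motif, the Glul window held 2 and the Slc1a3 window held 1 SOX core. Among 32851 windows of the same length, 41.5% held the NFI letters and 27.7% the SOX letters, so a match in any single window was common. A window was found for 6 of the 8 genes.

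Most calls among the 8 genes were between the regions. Over all genes tested, edgeR called 41.8% between regions at 30 days and 13.2% at 7 days, in either direction. Between days it called 17% in the ONP and 0% in the ONH. Aqp4, Atp1b2 and Slc1a2 were lower in the ONH than in the ONP at both times, Glud1 was lower in the ONH at 30 days, and Kcnj10 changed sides, being lower in the ONH at 7 days and higher there at 30 days. Between the ONH and ONP at 30 days, 4 of the 8 genes were called lower (background 20% of all genes tested) and 1 was called higher (background 21.8%) by edgeR's quasi-likelihood test at an adjusted p under 0.05. At 7 days, 4 of the 8 were called lower (background 6.81%) and none higher (background 6.34%; Slc1a3 had the only positive log2 fold change). The median log2 fold change of the 8 genes was -0.30 at 30 days and -0.58 at 7 days, beside -0.01 and 0.07 over all genes tested.

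Between 7 and 30 days, Kcnj10, Glul and Dag1 fell in the ONP, which is 3 of the 8 genes (background 9.21% lower), and none rose (background 7.82%). In the ONH none of the 8 was called between days by edgeR (background 0% of 15668 genes). Of all genes there, 13.9% had an unadjusted p under 0.05, as did 2 of the 8, Aqp4 and Kcnj10, and DESeq2 called 446 genes. The change between days differed between the ONP and the ONH for 1 of the 8 genes, Kcnj10 (background 0.394% in that direction and 0.149% in the other). The comparisons share libraries and are not independent of each other.

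**Figure D1:**
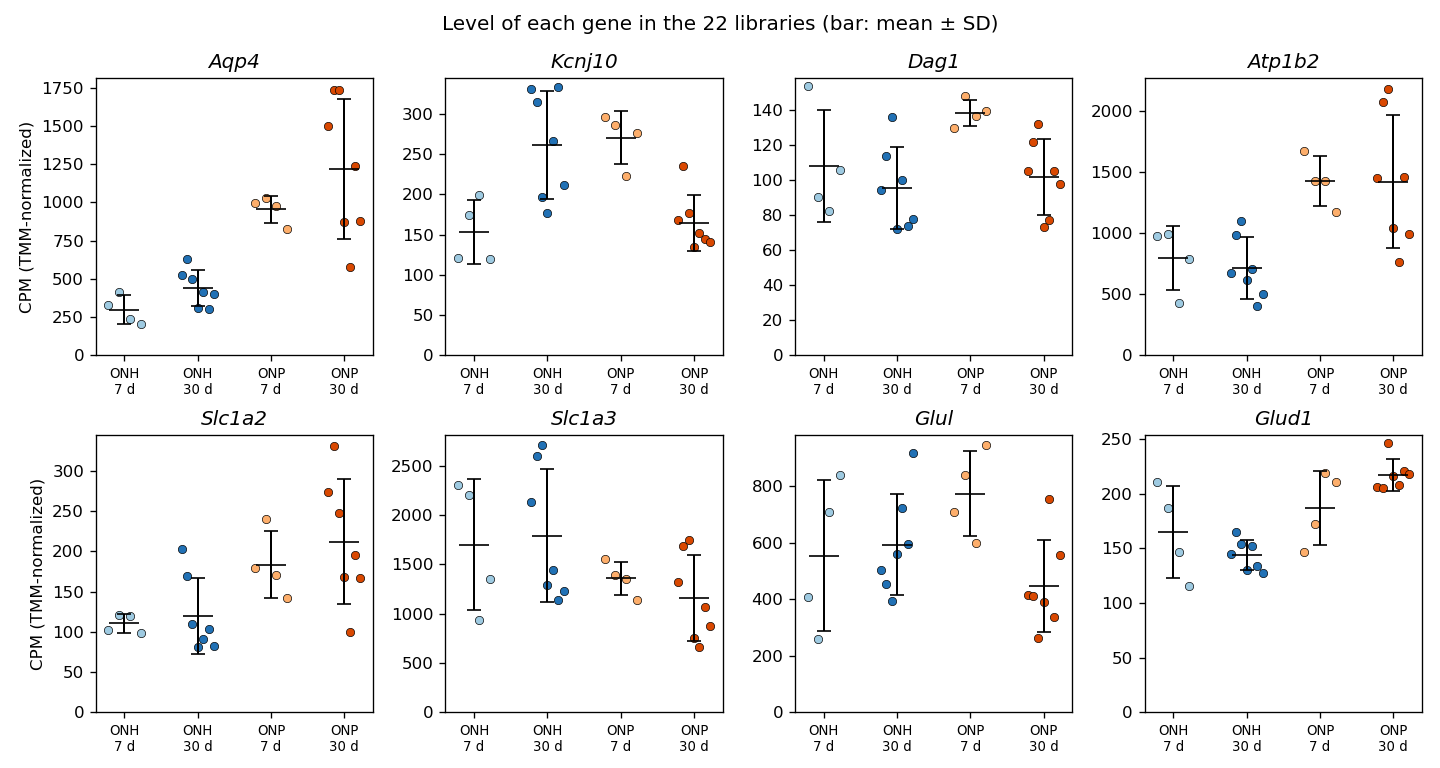
Level of each of the 8 genes in CPM after TMM normalization (y axis, from 0) in the 4 groups (x axis), with a point for each library and a bar for the mean ± SD. Aqp4 at 7 days shows 4 ONH points between 207 and 417 CPM below 4 ONP points between 828 and 1026 CPM, and Kcnj10 is high in the ONP at 7 days and in the ONH at 30 days.

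**Figure D2:**
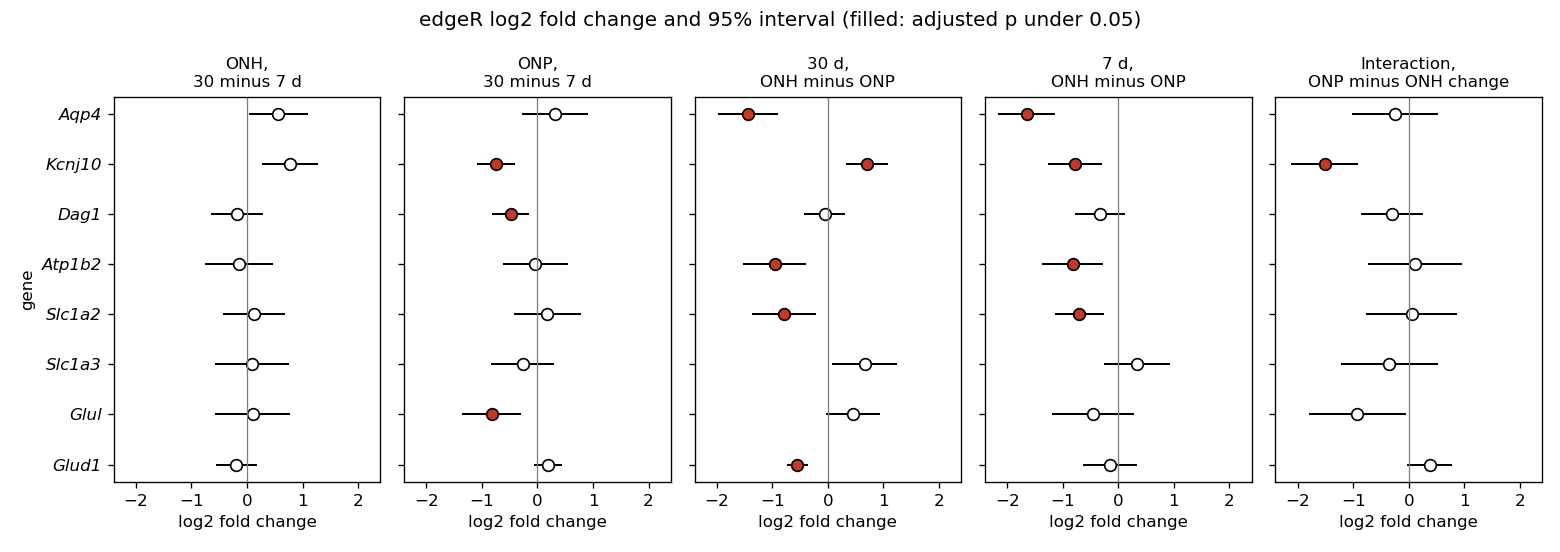
edgeR log2 fold change (x axis) with its 95% interval for each gene (y axis) in the 4 comparisons and the interaction, filled where the adjusted p was under 0.05. Kcnj10 lies at -0.78 in the regional comparison at 7 days and at 0.70 at 30 days.

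Aqp4 encodes the water channel of astrocyte endfeet (chromosome 18, 15389496 to 15410982, minus strand, GRCm38). In the ONH at 7 days it was at 331, 417, 240 and 207 CPM in libraries 1, 3, 5 and 6. In the ONP at 7 days it was at 996, 1026, 974 and 828 CPM in libraries 1, 2, 5 and 6. Every ONP library was above every ONH library (background 11.9% of genes in that direction), and the ONP was 3.14-fold higher (log2 fold change of ONH over ONP -1.65, SE 0.22, adjusted p 0.00106). At 30 days the ONH ranged from 301 to 629 CPM (median 416) and the ONP from 576 to 1734 CPM (median 1239). Of the 7 ONH replicates, 6 were below every ONP replicate, ONH was the lower region in 7 of 7 pairs of the same number, and the ONP was 2.70-fold higher (log2 fold change -1.43, SE 0.25, adjusted p 0.000298). The spread was wider at 30 days, with a coefficient of variation of 37.6% in the ONP against 9.22% at 7 days. Between days the change was not called in the ONH (0.57, 95% interval 0.06 to 1.07, adjusted p 0.316) or in the ONP (0.31, 95% interval -0.27 to 0.90, adjusted p 0.451).

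Dag1 encodes dystroglycan, the receptor for the basement membrane that anchors the complex around AQP4 (chromosome 9, 108204634 to 108263958, minus strand). It was at 154, 90.5, 82.5 and 106 CPM in ONH libraries 1, 3, 5 and 6 at 7 days and at 130, 148, 136 and 139 CPM in ONP libraries 1, 2, 5 and 6. At 30 days it ranged from 72.0 to 136 CPM in the ONH (median 94.1) and from 73.1 to 132 CPM in the ONP (median 105). The ONP at 7 days was the tightest of these groups, and 6 of the 7 ONP replicates at 30 days were below all 4 of its libraries. Dag1 fell in the ONP from 7 to 30 days (log2 fold change -0.48, SE 0.15, adjusted p 0.0413). This call was lost when any 1 of 9 of the 11 libraries was left out, all but replicates 2 and 3 at 30 days (adjusted p 0.0219 to 0.108 over the 11), and in 4 of the 7 other alternatives run (scaling by library size, RLE size factors, no filter and a single fit of all 4 groups, adjusted p up to 0.139). The regions were not called different at 30 days (-0.05, 95% interval -0.40 to 0.30) or at 7 days (-0.33, 95% interval -0.77 to 0.11), although at 7 days the call was reached without ONH library 1 (-0.56, adjusted p 0.0431).

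Kcnj10 encodes Kir4.1, the main potassium channel of astrocytes (chromosome 1, 172341210 to 172374085, plus strand). In the ONH at 7 days it was at 121, 174, 199 and 120 CPM in libraries 1, 3, 5 and 6. In the ONP at 7 days it was at 296, 286, 223 and 276 CPM in libraries 1, 2, 5 and 6. All 4 ONP libraries were above all 4 ONH libraries (background 11.9% of genes in that direction). The log2 fold change was -0.78 (SE 0.21, adjusted p 0.0340). The order turned at 30 days, when the ONH ranged from 177 to 333 CPM (median 267) and the ONP from 135 to 236 CPM (median 151). The ONH was the higher region in 7 of 7 pairs, 4 of its 7 replicates were above every ONP replicate, and it was 1.63-fold higher (log2 fold change 0.70, SE 0.17, adjusted p 0.00335).

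The changes between days had opposite signs in the ONP and ONH. In the ONP, Kcnj10 fell 1.68-fold from 7 to 30 days (log2 fold change -0.75, SE 0.15, adjusted p 0.00626), with 6 of 7 replicates below all 4 libraries at 7 days. In the ONH its log2 fold change was 0.77 (95% interval 0.28 to 1.26), with 5 of 7 replicates above all 4 libraries at 7 days, but this was not called (unadjusted p 0.00469, adjusted p 0.202). It passed in a single fit of all 4 groups (0.80, adjusted p 0.0488). The difference between these changes was -1.52 on the log2 scale (SE 0.28, 95% interval -2.10 to -0.93, adjusted p 0.0186), rank 20 by p among 16748 genes. The fall in the ONP kept its call with each of the 11 libraries left out. The regional difference at 7 days lost it without ONH library 1 or 6 or ONP library 1, 2 or 6 (adjusted p 0.0527 to 0.0959 in those fits), and the interaction lost it without ONH library 1 (0.0524) or ONP library 1 (0.0582) or 2 (0.0619). Without the 3 ONH libraries high in photoreceptor markers, the interaction was -1.64 (adjusted p 0.0101). That fit kept only libraries 1 and 3 of the ONH at 7 days.

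Atp1b2 encodes the β2 subunit of the sodium pump, the glial form that also acts in cell adhesion (chromosome 11, 69599736 to 69605942, minus strand). It was at 975, 991, 429 and 788 CPM in ONH libraries 1, 3, 5 and 6 at 7 days. In ONP libraries 1, 2, 5 and 6 it was at 1674, 1430, 1429 and 1173 CPM, above all 4 ONH libraries (background 11.9% of genes). The log2 fold change was -0.82 (SE 0.24, adjusted p 0.0490). At 30 days it ranged from 402 to 1104 CPM in the ONH (median 677) and from 762 to 2180 CPM in the ONP (median 1456). The ONH was the lower region in 7 of 7 pairs (log2 fold change -0.96, SE 0.26, adjusted p 0.00792). The call at 7 days, close to the threshold, was lost without ONH library 6 or any 1 of the 4 ONP libraries (adjusted p 0.0616 to 0.127 in those fits) and in 3 of the 8 other alternatives run, which were scaling by library size (adjusted p 0.0720), a single fit of all 4 groups (0.0600) and leaving out the 3 ONH libraries high in photoreceptor markers (-0.55, adjusted p 0.0551). The call at 30 days held with each of the 14 libraries left out. Its log2 fold change between days was -0.14 in the ONH (95% interval -0.74 to 0.45) and -0.04 in the ONP (95% interval -0.61 to 0.53), and the latter turned to 0.08 under scaling by library size.

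Slc1a2 encodes GLT-1, the glutamate transporter that predominates in the forebrain (chromosome 2, 102658659 to 102790784, plus strand). It was at 102, 121, 120.2 and 98.6 CPM in ONH libraries 1, 3, 5 and 6 at 7 days. In ONP libraries 1, 2, 5 and 6 it was at 179, 241, 171 and 142 CPM, above all 4 ONH libraries (background 11.9% of genes). The log2 fold change was -0.70 (SE 0.19, adjusted p 0.0373). At 30 days the ONH ranged from 80.9 to 203 CPM (median 103) and the ONP from 100.4 to 331 CPM (median 195). The ONH was again the lower region in 7 of 7 pairs (log2 fold change -0.79, SE 0.26, adjusted p 0.0246), although the ranges overlapped. The call at 7 days held only without ONH library 5 or ONP library 6 (adjusted p 0.0308 to 0.116 over the 8 libraries left out in turn), and was lost in 3 of the 8 other alternatives run. These were scaling by library size (adjusted p 0.0620), a single fit of all 4 groups (0.0981) and leaving out the 3 ONH libraries high in photoreceptor markers (-0.73, adjusted p 0.0584). The call at 30 days was lost without ONP replicate 1 (adjusted p 0.0508) or 2 (adjusted p 0.0582). Slc1a2 shares 189 exonic bases with the antisense gene Gm13872, and strand was not stated to be used in counting.

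Slc1a3 encodes GLAST, the other glial glutamate transporter (chromosome 15, 8634124 to 8710764, minus strand). In ONH libraries 1, 3, 5 and 6 at 7 days it was at 2305, 2199, 932 and 1356 CPM. In ONP libraries 1, 2, 5 and 6 it was at 1552, 1395, 1354 and 1143 CPM, inside the range of the ONH. At 30 days it ranged from 1136 to 2706 CPM in the ONH (median 1439) and from 664 to 1752 CPM in the ONP (median 1073). The ranges overlapped, but the ONH was the higher region in 7 of 7 pairs. The log2 fold change at 30 days was 0.66 (SE 0.26, adjusted p 0.0555) and was called with the replicate number as a block (0.67, SE 0.12, adjusted p 0.000862). Leaving out ONH replicate 4, 6 or 7 or ONP replicate 2 or 3 also brought it past the threshold (lowest adjusted p 0.0296), as did DESeq2 (0.65, adjusted p 0.0369). At 7 days the log2 fold change was 0.34 (95% interval -0.24 to 0.92, adjusted p 0.424), and without the 3 ONH libraries high in photoreceptor markers it was 0.71 (adjusted p 0.0137). That fit kept only ONH libraries 1 and 3 at 7 days (2305 and 2199 CPM), the higher values of that group.

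Glul encodes glutamine synthetase (chromosome 1, 153899944 to 153909723, plus strand). In ONH libraries 1, 3, 5 and 6 at 7 days it was at 410, 258, 709 and 842 CPM, the widest spread of any gene and group here (coefficient of variation 48.3%). In ONP libraries 1, 2, 5 and 6 it was at 710, 840.4, 601 and 946 CPM. At 30 days it ranged from 393 to 918 CPM in the ONH (median 562) and from 263 to 756 CPM in the ONP (median 413). Of the 7 ONP replicates at 30 days, 6 were below every ONP library at 7 days, and replicate 5 was inside their range. Glul fell 1.77-fold in the ONP between days (log2 fold change -0.83, SE 0.24, adjusted p 0.0324). That call was lost without library 1, 2 or 6 at 7 days or replicate 1, 2, 4 or 6 at 30 days (adjusted p 0.0552 to 0.113 in those fits) and in a single fit of all 4 groups (-0.80, adjusted p 0.0893). Between regions at 30 days the ONH was higher in 6 of 7 pairs, with a log2 fold change of 0.45 (SE 0.22, adjusted p 0.116) that was called with the replicate block (0.47, SE 0.12, adjusted p 0.00783) and without ONP replicate 5 (0.61, adjusted p 0.0255). At 7 days the log2 fold change was -0.45 (95% interval -1.17 to 0.27). Without the 3 ONH libraries high in photoreceptor markers, it was -1.23 (adjusted p 0.0112), and the interaction, -0.92 with all libraries (adjusted p 0.358), was -1.68 (adjusted p 0.0478). Those fits kept only ONH libraries 1 and 3 at 7 days (410 and 258 CPM), the lower values of that group. The exons of Glul overlap those of Teddm2 on the other strand by 116 bases and hold the microRNA Mir8114 (93 bases), so its counts are slightly uncertain.

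Markers of other cells also differed between days and regions. From 7 to 30 days in the ONP, 8 of the 10 oligodendrocyte markers fell (median log2 fold change of the list -0.84), none of the 10 microglia and macrophage markers was called (-0.60) and 5 of 8 endothelial markers fell (-2.09), while 2 of the 10 astrocyte markers rose (0.28). ONP replicate 5, the highest of its group in Glul, was also the highest in oligodendrocyte markers (86196 CPM), and replicates 5 and 7, the highest in Glul, were the highest in microglia and macrophage markers (2777 and 3169 CPM, beside 239 to 878 CPM in the other 5). No defining marker of oligodendrocytes was at 0 in any library. Between regions, oligodendrocyte markers were lower in the ONH for 8 of 10 genes at 30 days and 10 of 10 at 7 days, and 4 of 8 Müller glia markers were higher in the ONH at each time. Photoreceptor markers were higher in the ONH for 9 of 9 genes tested at 30 days and 8 of 9 at 7 days (median log2 fold changes 5.35 and 5.31), and pigment cell markers for 6 of 8 at each time (5.68 and 5.55). Of 6 oligodendrocyte precursor markers, 5 were lower in the ONH at 30 days and 3 at 7 days. Astrocyte markers differed as well, with 4 of 10 lower and 1 higher in the ONH at 30 days (median log2 fold change of the list -0.25). At 7 days 1 of the 10 was lower and none was higher (0.03). With group means removed, Kcnj10 and Dag1 did not rise with the oligodendrocyte list between libraries (Pearson's r -0.49 and -0.56). Neither passed (within-group permutation test, adjusted p 0.103 and 0.0656). Glul did rise with it and passed the same test (r 0.749, rho 0.703, adjusted p 0.00126 and 0.00565, r 0.727 without 2 libraries). The part of these cell types in the changes of Kcnj10, Dag1, Glul and the regional differences was not tested.

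Glud1 encodes glutamate dehydrogenase, a mitochondrial enzyme (chromosome 14, 34310727 to 34345265, plus strand). It was at 210.4, 187, 147 and 116 CPM in ONH libraries 1, 3, 5 and 6 at 7 days and at 146, 172, 219 and 211 CPM in ONP libraries 1, 2, 5 and 6, with overlapping ranges. At 30 days it ranged from 127 to 165 CPM in the ONH (median 145) and from 206 to 247 CPM in the ONP (median 216). Here all 7 ONH replicates were below all 7 ONP replicates (background 8.04% of genes), the only one of the 8 genes so separated at 30 days. The log2 fold change was small but tight, at -0.55 (SE 0.08, adjusted p 7.83e-05), and held its call with each of the 14 libraries left out. At 7 days the difference was -0.15 (95% interval -0.62 to 0.32, adjusted p 0.682). The changes between days were -0.19 in the ONH (95% interval -0.53 to 0.15) and 0.18 in the ONP (95% interval -0.05 to 0.42), and their difference of 0.38 was not called (adjusted p 0.425).

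Ordered by mean CPM, the 4 groups rarely separated. Aqp4 was highest in the ONP at 30 days, then in the ONP at 7 days, the ONH at 30 days and the ONH at 7 days, and only the step from the ONP at 7 days (956 ± 88.1 CPM, SD, n = 4) to the ONH at 30 days (440.3 ± 119 CPM, SD, n = 7) had ranges that did not overlap. For the other 7 genes, the ranges of neighbouring groups overlapped at every step. Kcnj10 ran from the ONP at 7 days (270.2 ± 32.7 CPM, SD, n = 4) through the ONH at 30 days (261 ± 66.6, n = 7) and the ONP at 30 days (165 ± 34.8, n = 7) to the ONH at 7 days (153 ± 39.7, n = 4). Slc1a3 was the only one of the 8 highest in both ONH groups.

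Compared per length (counts per exonic length, scaled to a common total per library as in TPM), the pump subunit gene Atp1b2 was first of the 8 in the ONP and GLAST in the ONH. In the ONP at 7 days, Atp1b2 stood at 1152 ± 173 of these TPM-like units (SD, n = 4), rank 98 of 29322 genes, followed by Glul (766 ± 136), Slc1a3 (526 ± 69.1) and Aqp4 (506 ± 54.4). Kcnj10 (164 ± 17.9), Glud1 (146 ± 27.5), Dag1 (71.6 ± 4.43) and Slc1a2 (46.0 ± 10.9) followed. At 30 days the ONP had Atp1b2 (1158 ± 444, SD, n = 7), Aqp4 (649 ± 247) and Slc1a3 (451 ± 172) first. In the ONH at 7 days Slc1a3 (660.4 ± 276, SD, n = 4) and Atp1b2 (645 ± 224) were first and Slc1a2 was last (27.6 ± 2.26). On this scale Slc1a2 stood below Slc1a3 in all 4 groups.

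Ratios of 2 genes within a library do not depend on how libraries are scaled to each other. The balance of transporters, Slc1a2 to Slc1a3, had a mean log2 ratio of counts of -3.90 ± 0.41 (SD, n = 7) in the ONH and -2.46 ± 0.24 (n = 7) in the ONP at 30 days, so relatively more GLT-1 transcript was present in the ONP. The difference was -1.45, no ONH replicate overlapped the ONP, and the exact two-sided permutation test gave p = 0.000583, the smallest it can give for 7 against 7 (adjusted p 0.0035 over the 12 ratio tests). At 7 days the difference was -0.94 and did not pass (exact permutation p 0.114, adjusted p 0.171). In the ONP the ratio rose between days from -2.91 ± 0.26 (SD, n = 4) by 0.46 (exact permutation, adjusted p 0.0485).

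The balance of water to potassium channel, Aqp4 to Kcnj10, had the largest difference of the 12 ratio tests. Its mean log2 ratio was 0.75 ± 0.46 (SD, n = 7) in the ONH and 2.81 ± 0.46 (n = 7) in the ONP at 30 days, a difference of -2.06 with no overlap (exact permutation, adjusted p 0.0035). At 7 days it was 0.94 ± 0.53 (SD, n = 4) in the ONH and 1.83 ± 0.23 (n = 4) in the ONP, a difference of -0.88 with no overlap (exact permutation p 0.0286, the smallest possible for 4 against 4, adjusted p 0.0490). The ratio rose by 0.99 in the ONP between days (exact permutation, adjusted p 0.0273). In the ONH the difference between days was -0.19 (adjusted p 0.598 by the same exact permutation test).

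The balance of the glutamate enzymes, Glul to Glud1, fell in the ONP from 2.05 ± 0.40 (SD, n = 4) to 0.97 ± 0.56 (n = 7) on the log2 scale (difference -1.08, exact permutation, adjusted p 0.0291). At 30 days it was higher in the ONH, at 2.00 ± 0.51 (SD, n = 7), than in the ONP by 1.03 (exact permutation, adjusted p 0.0210). Neither the difference between regions at 7 days (-0.41) nor that between days in the ONH (0.36) passed (exact permutation, adjusted p 0.598 for both).

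**Figure D3:**
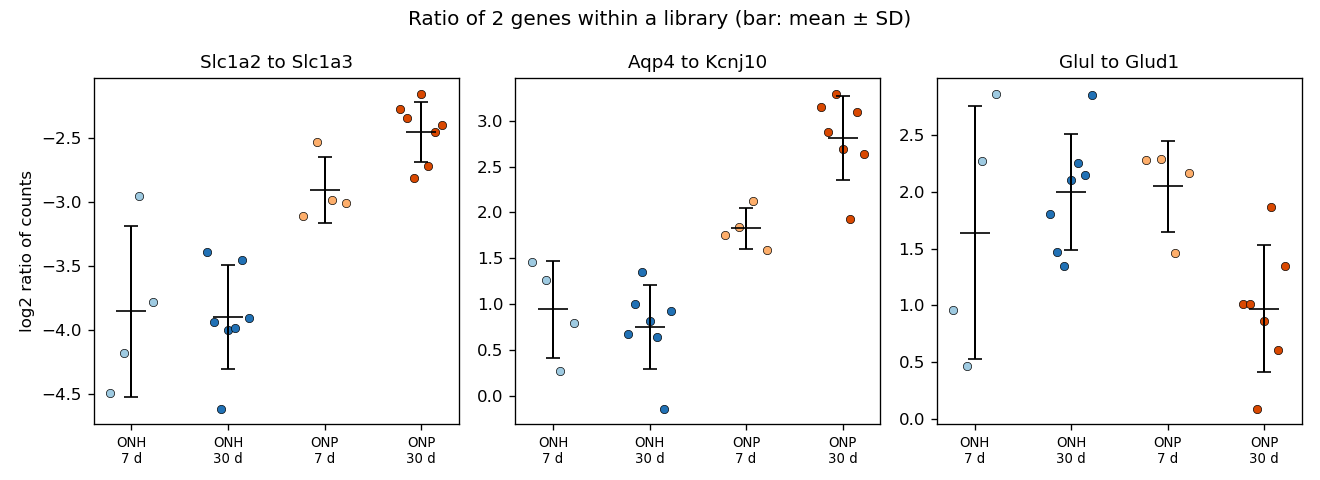
Log2 ratio of the counts of 2 genes within each library (y axis) in the 4 groups (x axis), with a point for each library and a bar for the mean ± SD. The ratio of Aqp4 to Kcnj10 at 30 days has a mean of 0.75 in the ONH and 2.81 in the ONP, with no overlap.

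The 8 genes did not vary as a unit between libraries of a group. After the mean of each group was removed, 16 of the 28 pairs of genes had a correlation past the threshold (within-group permutation test with 100000 shuffles, adjusted p under 0.05 over the 28), 11 of them positive and 5 negative. Slc1a3 and Atp1b2 were the closest pair (Pearson's r 0.944, Spearman's rho 0.936, permutation p 1e-05 for each, the smallest the shuffles can give, adjusted p 0.00014, and r 0.925 once the pair of libraries most distant from the median was dropped). Aqp4 and Slc1a3 followed (r 0.891, rho 0.902, permutation p 1e-05 for each, adjusted p 0.00014, r 0.876 without 2 libraries). All 5 negative pairs held Glul, the strongest being with Slc1a3 (r -0.740, rho -0.727, permutation p 0.00101 and 0.001, adjusted p 0.00353 and 0.0035, r -0.670 without 2 libraries). Of its 7 pairs, Kcnj10 passed with 1, Slc1a2 (r 0.632, rho 0.619, permutation p 0.00352 and 0.00371, adjusted p 0.00896 and 0.00866, r 0.524 without 2 libraries). All values were shares of the same library totals, which by itself ties them together, and the shuffles took the 22 libraries as independent although same-numbered libraries at 30 days were taken as the same mice.

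Set against the summed marker lists in the same way (88 relations), Glul went with markers of other cells. Its r with the microglia and macrophage list was 0.807 (rho 0.773, permutation p 5e-05 and 0.00015, adjusted p 0.0011 and 0.00226, r 0.731 without 2 libraries). With the astrocyte list its r was -0.823 (rho -0.792, permutation p 9e-05 and 0.00017, adjusted p 0.00126 and 0.00226, r -0.731 without 2 libraries). Slc1a3 and Atp1b2 went most closely with the Müller glia list, at r of 0.909 and 0.933 (rho 0.924 and 0.947, permutation p 1e-05 and adjusted p 0.00044 for each, r 0.876 and 0.903 without 2 libraries). They also went with the astrocyte list, at r of 0.784 and 0.811 (rho 0.747 and 0.851, permutation p 2e-04 and 2e-05 for r, adjusted p 0.00205 and 0.000587, r 0.714 and 0.730 without 2 libraries). None of the 11 lists passed with Kcnj10, whose r ranged from -0.53 to 0.17. None of the 8 genes is itself in a marker list.

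**Figure D4:**
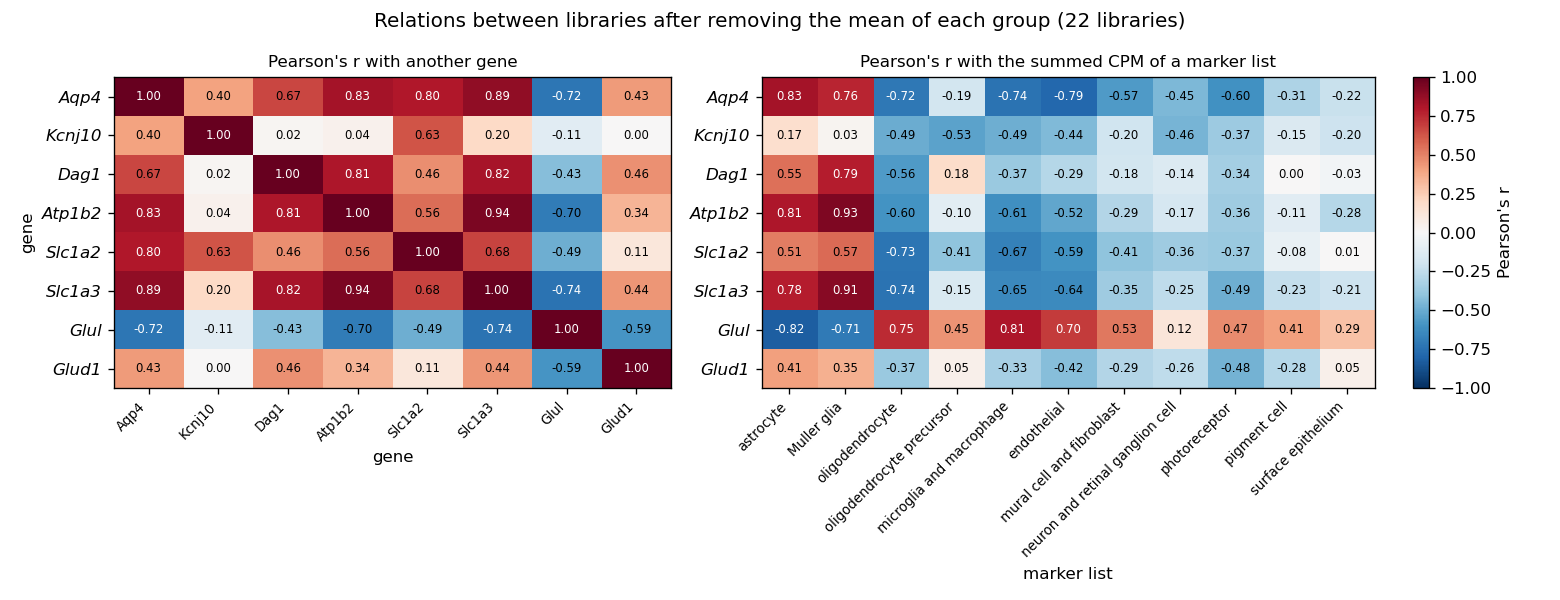
Pearson's r over the 22 libraries after removal of group means, between the 8 genes (left) and between each gene and the summed CPM of each marker list (right), on a color scale from -1 to 1. Glul stands apart, at -0.82 with the astrocyte list and 0.81 with the microglia and macrophage list.

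The genes most like each of the 8 over the 22 libraries, by Pearson's r of log2 CPM among 16690 other genes, were Bcan for Aqp4 (0.965), Gtf2i for Kcnj10 (0.851), Acsl3 for Dag1 (0.859), Fads2 for Atp1b2 (0.961), Sema6d for Slc1a2 (0.880), Ednrb for Slc1a3 (0.968), Fcgr1 for Glul (0.884) and Ahcyl1 for Glud1 (0.921). These values are a description, since groups and library makeup are shared by all genes.

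Of 56 further genes in 3 lists (anchoring of AQP4 and water, potassium and the sodium pump, and the glutamate cycle), 55 were analysed here. None was called between days in the ONH. In the ONP, 6 rose and 11 fell of 54 tested (background 7.82% and 9.21%). Between regions, 6 were higher and 16 lower in the ONH at 30 days of 54 tested (background 21.8% and 20%), and 6 were higher and 10 lower at 7 days of 55 tested (background 6.34% and 6.81%). The median log2 fold change of the 55 tested at 7 days was -0.22, beside 0.07 over all genes.

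**Figure D5:**
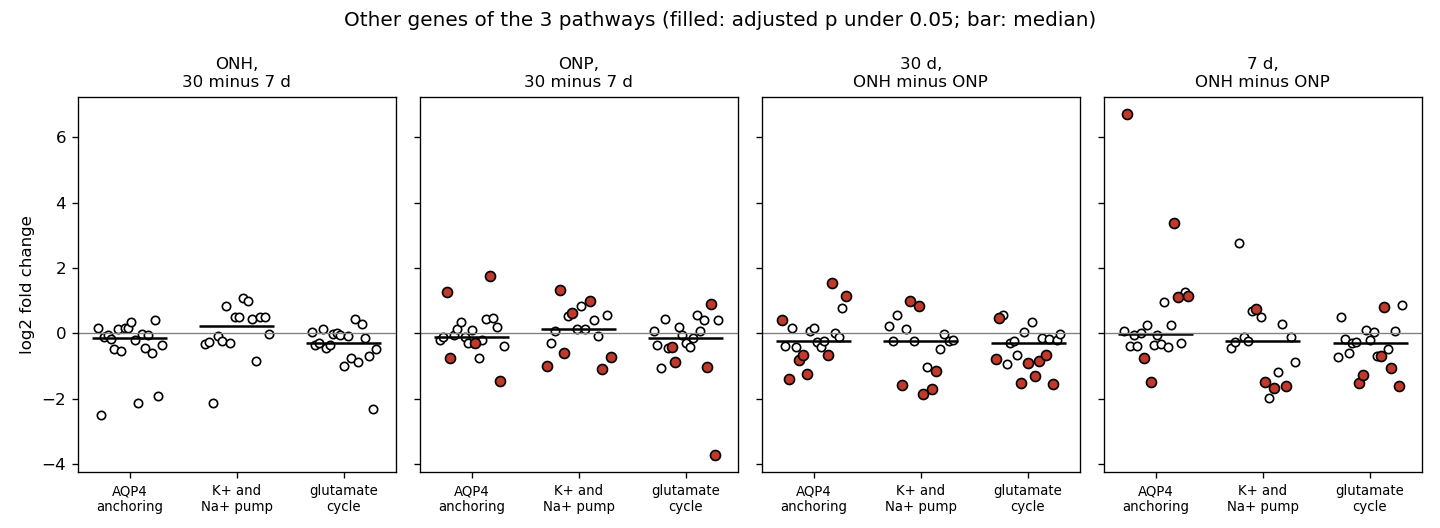
edgeR log2 fold change (y axis) of the other genes of the 3 lists (x axis) in the 4 comparisons, filled where the adjusted p was under 0.05, with a bar at the median of each list. No point is filled for the ONH between days; the point near 6.7 at 7 days is Aqp1, which was close to 0 in the ONP, so that its fitted value depends on the prior count.

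Among the genes around AQP4, Hepacam, the adhesion protein that partners the chloride channel ClC-2, was lower in the ONH at 30 days (154 ± 26.0 against 373 ± 40.7 CPM, SD, n = 7 each, log2 fold change -1.24, adjusted p 1.96e-06) and at 7 days (-1.48, adjusted p 0.00043). Dtna, encoding α-dystrobrevin, was also lower there at 30 days (-0.80, adjusted p 0.000278) and 7 days (-0.76, adjusted p 0.0437), as was Dtnb at 30 days (-0.66, adjusted p 0.00127). Utrn, encoding utrophin, was higher in the ONH at both times (1.15 for each, adjusted p 0.000139 at 30 days and 0.00425 at 7 days), as was the syntrophin gene Sntb1 (1.53 and 3.38, adjusted p 0.000623 and 0.0112), and Agrn, encoding agrin, was higher at 30 days (0.41, adjusted p 0.0326). Aqp1 was at 6.58 ± 5.76 CPM in the ONH and 0.0518 ± 0.104 CPM in the ONP at 7 days (SD, n = 4 each), and no fold change is given. In the ONP between days, Clcn2, which encodes ClC-2, fell (-0.76, adjusted p 0.000776), as did Sgcb (-0.29, adjusted p 0.0168) and the cation channel gene Trpv4 (-1.47, adjusted p 0.0488), while Sntb1 (1.77, adjusted p 0.0300) and Aqp9 (1.26, adjusted p 0.0375) rose.

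Among genes of potassium and sodium transport, Kcnj16, encoding Kir5.1, which forms channels with Kir4.1, was lower in the ONH at 30 days (15.0 ± 7.38 against 55.5 ± 21.9 CPM, SD, n = 7 each, log2 fold change -1.86, adjusted p 0.000274) and at 7 days (-1.48, adjusted p 0.0143). Its direction at 30 days was thus opposite to that of Kcnj10. Kcnk1, a leak channel gene, was lower in the ONH at both times (-1.70 and -1.66, adjusted p 0.000113 and 0.00333), and Atp1b1 at 30 days (-1.56, adjusted p 8.41e-05). The pump regulators Fxyd1 (0.98, adjusted p 0.000456) and Fxyd7 (0.84, adjusted p 0.00293) were higher in the ONH at 30 days and Fxyd6 at 7 days (0.73, adjusted p 0.0480), when the cotransporter gene Slc12a2 was lower (-1.60, adjusted p 0.0107). In the ONP between days Atp1b1 (1.33, adjusted p 0.00569), Kcnk1 (1.0, adjusted p 0.0181) and Fxyd6 (0.62, adjusted p 0.0146) rose, and Slc12a2 fell (-1.10, adjusted p 0.00333).

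Among genes of the glutamate cycle, the aminotransferase gene Gpt2 was lower in the ONH at 30 days (73.3 ± 17.0 against 213 ± 22.1 CPM, SD, n = 7 each, log2 fold change -1.50, adjusted p 1.47e-06) and at 7 days (-1.28, adjusted p 0.00292), and Gpt was lower at 7 days (-1.52, adjusted p 0.0190). The glutamine transporter genes Slc38a3 (-1.53, adjusted p 6.9e-05) and Slc1a5 (-1.31, adjusted p 0.000575) were lower in the ONH at 30 days and Slc38a5 (-1.60, adjusted p 0.0171) at 7 days. Arl6ip5, whose product binds a glutamate transporter, was higher in the ONH at 30 days (0.48, adjusted p 0.00532), and Slc25a22, a mitochondrial glutamate carrier, at 7 days (0.81, adjusted p 0.0304). In the ONP between days Slc38a5 fell from 37.3 ± 5.52 (SD, n = 4) to 2.88 ± 2.26 CPM (n = 7, log2 fold change -3.73, adjusted p 0.00103). Slc38a2 (-1.03, adjusted p 0.00054) and Got2 (-0.43, adjusted p 0.0225) fell as well, and Slc38a3 rose (0.90, adjusted p 0.0160).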

How the data were processed

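RNA-seq libraries of ribosome-bound RNA from 22 pools (regions ONH and ONP, 7 and 30 days) were analysed. The authors aligned reads with STAR 2.6.1d to mm10, quantified Ensembl transcripts with Salmon 0.14.2 and summed them to genes, and the deposited estimated counts were unnormalized whole numbers. A second table by the authors holds log2 values after the variance stabilizing transformation of DESeq2 1.34.0 and was used as an alternative for the ratios. Library preparation used oligo-dT and a low-input kit, and strand use was not given in the sources used here.

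Members and lists were chosen with earlier results of these data known. Each pair of groups was fitted with edgeR 4.0.16 under R 4.3.3 (filterByExpr, TMM, quasi-likelihood test, Benjamini-Hochberg adjustment over all genes tested, adjusted p under 0.05, no log2 cutoff), fitting only the libraries compared, and the interaction was fitted on all 22. Ratios of counts (plus 0.5) were tested by exact permutation, with adjustment over 12 tests. Levels are TMM-normalized CPM, and log2 CPM used a prior count of 2. Named pathway genes were up to 3 called higher and 3 called lower per list and comparison with the smallest adjusted p. Some genes that met this rule are counted but not reported by name here. Levels per length used exonic lengths from GENCODE M21 (GRCm38), which matched 29322 of 29367 identifiers.

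Depth was 16292489 to 33307092 counts, so that 3 counts, taken as the smallest detectable amount, were 0.0912 to 0.192 CPM. This covers counting error only. Replicates were separate pools of mice. ONH and ONP replicates sharing a number at 30 days were taken as the same mice, since both regions came from the same animals; the deviations of same-numbered libraries correlated at 0.0728 to 0.475, with 5 of 7 over 0.1 and 3 of 7 best with their own number. Alternatives were DESeq2 1.42.0, limma 3.58.1 (voom with sample weights), other scalings and filters, a single fit of the 4 groups, the replicate block, each library left out and, added after the data were seen, the 3 ONH libraries high in photoreceptor markers left out. The scripts were tested on simulated data. All columns of both tables were used. The upstream sequences came from RefSeq.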

Additional observations from a re-analysis of the deposited data

Results flagged for a closer look

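Of 32 sets of values (8 genes in 4 groups), 2 held a library whose gap to its neighbour was large for the spread of its group (Dixon's test at the 95% level), and chance gives about 1 in 20. Kcnj10 in ONP replicate 2 at 30 days was at 235.694 CPM, beside 177 CPM in the next replicate. Without that replicate, the log2 fold change of Kcnj10 between days in the ONP was -0.86 (adjusted p 0.00162). Glud1 in ONP replicate 3 at 30 days was at 246.749 CPM, beside 221 CPM in the next.

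The change between days differed between regions by the interaction test for 1 of the 8 genes and 1 of the 55 others on the lists. Kcnj10 differed by -1.51556 on the log2 scale (ONP minus ONH, adjusted p 0.0186). Slc25a22 differed by 0.936011 (adjusted p 0.0460), its mean going from 25.9 ± 3.94 (SD, n = 4) to 14.1 ± 2.36 CPM (n = 7) in the ONH and from 15.0 ± 2.05 (n = 4) to 16.1 ± 1.70 CPM (n = 7) in the ONP.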

How the results depend on the processing

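The calls of Aqp4, Kcnj10, Atp1b2 and Glud1 between regions at 30 days, of Aqp4 at 7 days and of Kcnj10 in the ONP between days held in every alternative run and with each library left out. The number of genes called between days in the ONH, 0 by edgeR, was 446 with DESeq2, 2 without a filter, 292 with all 4 groups in 1 fit and 28 without the 3 ONH libraries high in photoreceptor markers. With all groups in 1 fit it was 1189 in the ONP between days, beside 2638. Between regions at 7 days it was 3203 with DESeq2 and 3785 with all groups in 1 fit, beside 1940. For the interaction it was 409 with DESeq2, 55 with limma-voom, 50 without a filter and 441 without the 3 ONH libraries, beside 91. Leaving out 1 library gave 0 to 167 (ONH between days), 1439 to 3214 (ONP between days), 5671 to 6416 (regions at 30 days), 1102 to 2379 (regions at 7 days) and 22 to 318 (interaction). Scaling by library size moved the median of all genes to 0.11 in the ONP between days and to 0.18 between regions at 7 days, with 1934 genes higher and 966 lower (beside 1211 and 1427) and 1392 higher and 840 lower (beside 936 and 1004), and gave 37 higher and 32 lower for the interaction (beside 25 and 66). With the replicate block, 6717 genes were called between regions at 30 days, beside 6322, and Slc1a3 (0.67) and Glul (0.47) gained a call. The block changed no other call of the 8 genes, and none was fitted at 7 days, where the column numbers could not be matched to the replicate numbers of the labels. The paired ratios kept their calls (exact sign-flip p 0.0156, the smallest possible).

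Directions that turned belonged to uncalled values. Some of these were not near 0 with all libraries, such as Slc1a3 (-0.35) and Aqp4 (-0.25) in the interaction. Another was the ratio of Glul to Glud1 in the ONH between days (0.36). Under other tests and scalings, those that turned were Slc1a2 in the ONH between days with limma-voom (-0.00077) and Atp1b2 in the ONP between days under library size scaling (0.0801). Without the 3 ONH libraries they were Slc1a3 in the ONH between days (-0.247), Dag1 between regions at 30 days (0.0017), Glud1 at 7 days (0.0731) and, in the interaction, Aqp4 (0.016), Slc1a2 (-0.0014) and Slc1a3 (0.0061). With 1 library left out, the ONH values between days ranged from -0.30 to 0.0394 (Dag1), -0.0538 to 0.19 (Slc1a2), -0.10 to 0.27 (Slc1a3), -0.15 to 0.36 (Glul), -0.26 to 0.25 (ratio of Slc1a2 to Slc1a3) and -0.0350 to 0.76 (ratio of Glul to Glud1). They ranged from -0.17 to 0.10 for Atp1b2 in the ONP between days, from -0.14 to 0.0179 for Dag1 between regions at 30 days, and from -0.00546 to 0.31 (Atp1b2) and -0.0621 to 0.26 (Slc1a2) in the interaction. The ratio of Aqp4 to Kcnj10 at 7 days ranged from -1.05 to -0.66 and lost its call with each of the 8 libraries left out (adjusted p 0.0857 to 0.171). With a library left out, p was adjusted over the 6 ratio tests refitted, not the 12. With 3 libraries against 4, the exact test has so few splits that no ratio could pass alone after that adjustment. The loss at 7 days therefore says nothing on how stable that difference is. Since the regions did not overlap with all 8 libraries, leaving 1 out could not make them overlap. In the ONP between days, ranges were 0.39 to 0.58 (Slc1a2 to Slc1a3), 0.91 to 1.13 (Aqp4 to Kcnj10) and -1.27 to -0.93 (Glul to Glud1), with calls lost in 4, 3 and 3 of the 11. Those losses followed only the removal of a 7 day library. Where not stated otherwise, the cause was not tested.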
